A study of Rattus norvegicus with 49 samples.

Results

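Mast cell genes were followed across 49 rat thyroid arrays: 10 genes that code for the granule proteases, receptors and histamine-forming enzyme by which mast cells are usually recognised. A probe counted as a member when its RefSeq accession belonged to Cma1, Mcpt1, Mcpt2, Tpsab1, Tpsb2, Cpa3, Kit, Ms4a2, Fcer1a or Hdc. The arrays held 10 such probes for 9 of the 10 genes, out of 30367 probes and 15154 gene symbols, with 2 probes for Fcer1a. Mcpt2 is named only. All 9 genes passed the filter on dim probes, and each was well above background on 46 to 49 of the 49 arrays, so the filter did not choose among them.

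The arrays carried RNA from the flash-frozen thyroids of male Sprague Dawley rats, 1 rat per array, after intravenous 131I, a beta-emitting iodine isotope that the thyroid takes up. Young rats were injected at 5 weeks of age with 50 kBq and killed 3, 6 or 9 months later, or with 0.5, 5 or 500 kBq and killed 9 months later. Adult rats were injected at 17 weeks of age with 50 kBq and killed 3, 6 or 9 months later. Uninjected controls were 4, 7, 10 or 13 months old. The 13 groups held 4 arrays each, except that 5 kBq, the controls of 7 months and the controls of 13 months held 3. All rats were of a single outbred stock and sex, and every value is an average over all cells in the piece of tissue extracted. Fewer mast cells and less RNA per mast cell cannot be told apart in such samples.

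Mast cells are tissue-resident immune cells that sit along vessels and in connective tissue, the thyroid capsule and stroma included. Their granules hold chymases, tryptases, carboxypeptidase A3 and histamine, bound to proteoglycan. The high-affinity IgE receptor on their surface triggers release of the granules when antigen links bound IgE, and the receptor tyrosine kinase Kit, on binding stem cell factor, keeps the cells alive. The chymases Cma1 and Mcpt1 (on chromosome 15 of the rat assembly GRCr8) and the tryptases Tpsab1 and Tpsb2 (on chromosome 10) are serine proteases with close relatives, so that a probe may also read a relative's RNA. In GRCr8 Cma1 lies at 15:33387351-33390133, Mcpt1 at 15:33841606-33844174, Tpsab1 at 10:14864887-14867302, Tpsb2 at 10:14886310-14888102 and Cpa3 at 2:104641619-104673253. Kit lies at 14:32901615-32978895, Ms4a2 at 1:217864855-217873934, Fcer1a at 13:88218427-88224723 and Hdc at 3:134300628-134318704. Which exon each probe reads is not given in the sources used here.

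Because the values of the 9 genes moved together between rats, the stretches around their transcription starts are shown first. Each runs from 250 bases before to 50 bases after the start, as RefSeq gives it for GRCr8, 5′ to 3′ on the gene's strand. Capitals mark each GATA on either strand, read as TATC on the strand shown, the core of the sites that GATA2, a transcription factor of the mast cell lineage, binds. Shown are the IgE receptor alpha chain gene Fcer1a (13:88224630-88224929, minus strand), Cpa3 (2:104673188-104673487, minus strand), the pair of tryptases Tpsab1 (10:14867253-14867552, minus strand) and Tpsb2 (10:14886060-14886359, plus strand), and the chymase Cma1 (15:33390084-33390383, minus strand). These 5 are among the 6 genes that followed each other most closely.
Fcer1a: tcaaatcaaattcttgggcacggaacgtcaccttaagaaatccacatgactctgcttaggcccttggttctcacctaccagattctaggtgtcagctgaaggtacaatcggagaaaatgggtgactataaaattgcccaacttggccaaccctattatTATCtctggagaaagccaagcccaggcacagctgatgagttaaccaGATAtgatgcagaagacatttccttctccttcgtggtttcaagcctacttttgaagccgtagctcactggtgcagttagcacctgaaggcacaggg
Cpa3: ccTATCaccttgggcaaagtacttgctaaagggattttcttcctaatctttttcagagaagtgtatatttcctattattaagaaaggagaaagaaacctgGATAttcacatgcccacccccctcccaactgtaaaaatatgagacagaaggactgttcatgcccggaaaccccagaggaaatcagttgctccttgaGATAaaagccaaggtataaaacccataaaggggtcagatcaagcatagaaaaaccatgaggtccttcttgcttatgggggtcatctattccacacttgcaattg
Tpsab1: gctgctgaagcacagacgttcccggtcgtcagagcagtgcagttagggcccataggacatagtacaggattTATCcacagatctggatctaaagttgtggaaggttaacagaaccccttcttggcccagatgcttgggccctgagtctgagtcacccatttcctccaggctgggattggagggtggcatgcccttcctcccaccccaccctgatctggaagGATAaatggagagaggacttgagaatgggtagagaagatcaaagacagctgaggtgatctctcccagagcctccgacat
Tpsb2: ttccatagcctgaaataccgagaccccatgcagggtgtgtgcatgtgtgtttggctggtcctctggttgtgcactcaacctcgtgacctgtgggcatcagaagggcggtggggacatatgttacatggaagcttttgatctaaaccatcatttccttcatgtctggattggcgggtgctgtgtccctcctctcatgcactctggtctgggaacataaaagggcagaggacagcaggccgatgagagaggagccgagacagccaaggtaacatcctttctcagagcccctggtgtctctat
Cma1: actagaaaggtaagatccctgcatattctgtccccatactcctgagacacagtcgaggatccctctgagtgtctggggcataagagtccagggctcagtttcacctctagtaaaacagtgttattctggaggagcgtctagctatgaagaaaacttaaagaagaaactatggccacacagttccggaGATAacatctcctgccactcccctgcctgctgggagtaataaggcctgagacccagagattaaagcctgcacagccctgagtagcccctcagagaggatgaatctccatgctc

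A promoter sequence was matched for 8 of the 10 genes. GATA occurred on either strand in 5 of the 8, and in 60.5% of all 33469 promoters of the same length. In Cpa3 it began 248, 150 and 54 bases before the start, in Fcer1a 92 and 46, in Tpsab1 179 and 29, in Cma1 63 and in Mcpt1 104. Tpsb2, Kit and Hdc had none in this window. The longer forms AGATAA or TGATAA, which overlap GATA, occurred on either strand in 4 of the 8 against 18.9% of all promoters. CANNTG, the general E-box, occurred in 6 of the 8 against 72.1%, and its forms CACGTG or CATGTG, which MITF binds, in 3 of the 8 against 19.7%. TATAAA on the gene's strand occurred in 3 of the 8 against 8.80%. A match in these letters is not a measured site, and the arrays do not bear on binding.

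All levels below are log2 processed signals minus the 75th percentile of their array, so that 1 unit is a factor of 2 relative to the bulk of the probes. The number of arrays limits the precision. Levels of different probes are not set against each other. The arrays came from 8 slides and 3 scan dates of 24, 14 and 11 arrays. The 75th percentile of the signal lay between 61.4 and 4167 with a median of 2691, and no spot was saturated.

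Among the arrays 3 stood apart, and results that rest on them are given with and without them. The array of 50 kBq young 3 months replicate 2 had the lowest signal, with 43.1% of its spots well above background, the smallest share of all arrays. The label of thyroid went against the data on 50 kBq young 3 months replicate 3 and control 7 months replicate 2, where thyroglobulin (Tg), the hormone precursor made by thyrocytes, was at 0.13 and -0.70. On the 46 other arrays Tg lay between 6.41 and 7.91. Pax8 was low on the same pair of arrays as well, at -8.15 and -6.13 against at least -0.09. Not every thyrocyte gene was low there, since Foxe1, at 1.49 and 1.10, lay within the 0.77 to 4.14 of the 46 others. The mean over the 9 mast cell genes was -2.98 on the former array and -5.60 on the latter, against -4.27 to -2.29 on the 46 others. Hence mast cell signal was at an ordinary level in the first of these pieces and the lowest of all arrays in the second.

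Within groups, replicate arrays of control 13 months 1 and 2 were the closest pair, with a median absolute difference of 0.0936 over 5474 probes, where the median over the 69 within-group pairs was 0.243. That was 2.17 times the difference between duplicate spots of a single array, so both arrays were kept as separate rats.

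**Figure D1:**
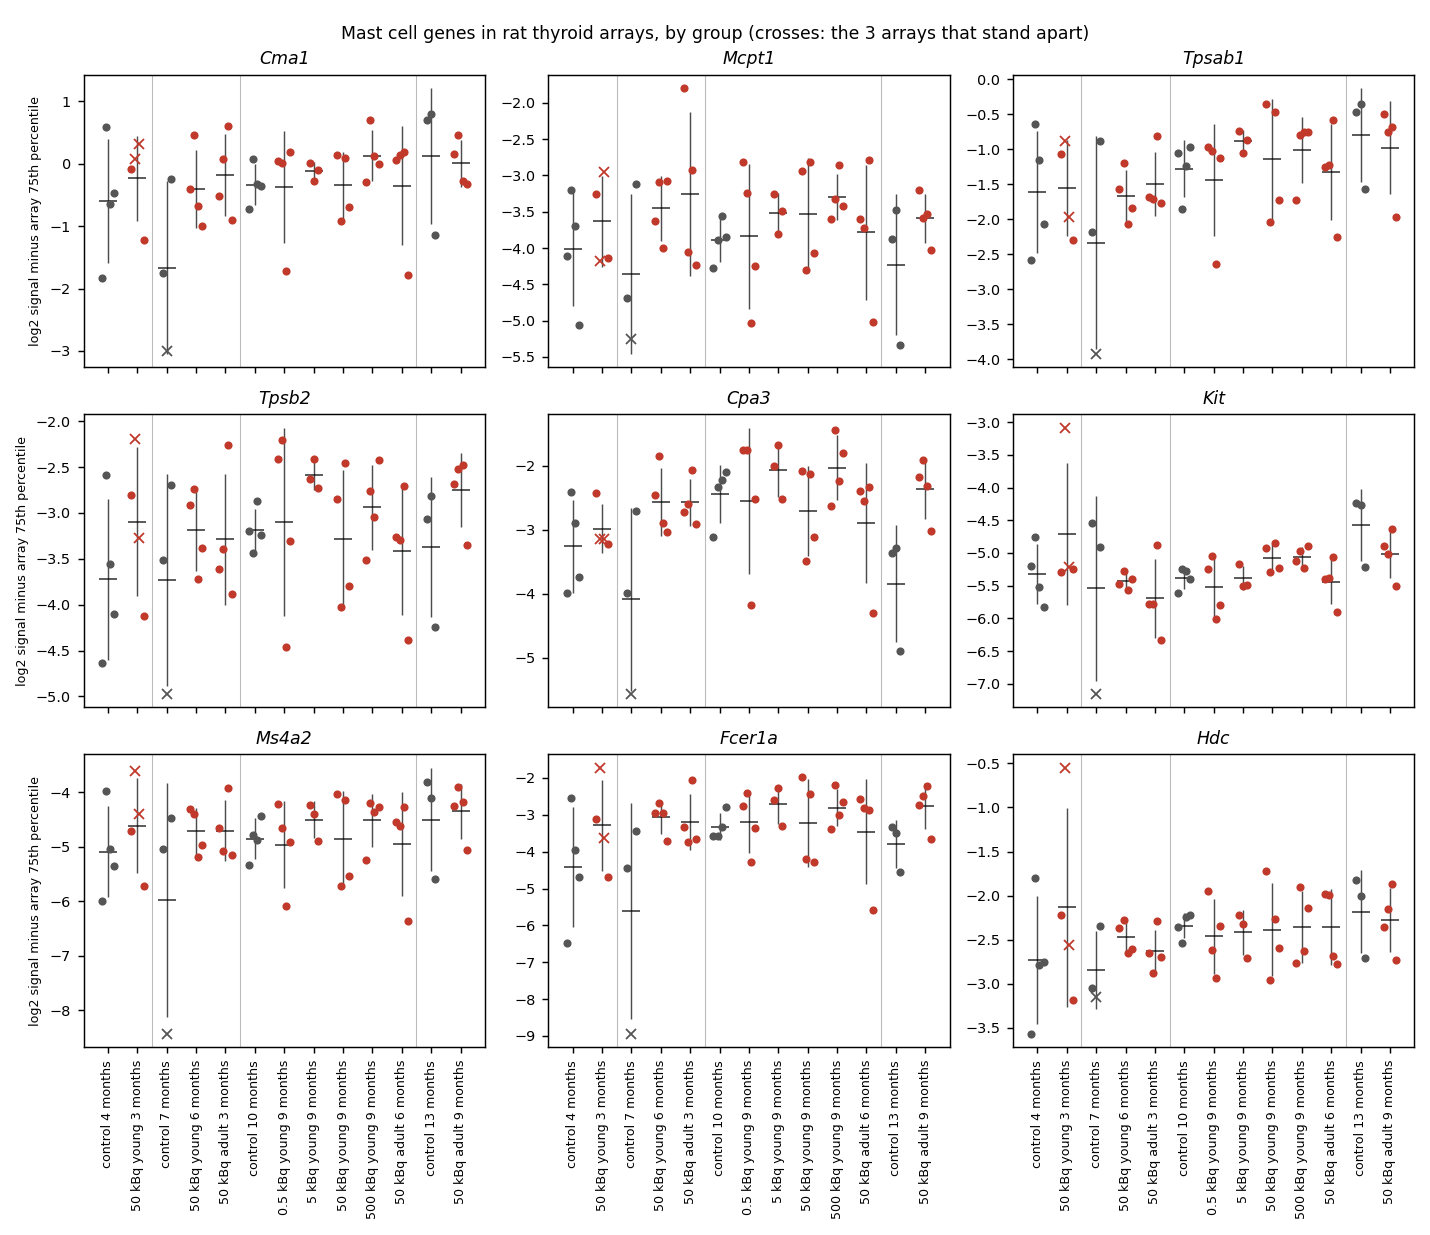
Levels of the 9 mast cell genes on the 49 arrays (vertical axis, log2 processed signal minus the 75th percentile of the array; horizontal axis, the 13 groups in order of age). Grey points are controls, red points exposed rats and crosses the 3 arrays that stood apart; the horizontal bars are group means and the vertical bars 1 SD. For 8 of the 9 genes control 7 months had the lowest group mean, and for 7 of the 9 its replicate 2 was the lowest array; points of exposed and control rats overlapped almost throughout.

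The chymases differed between rats far more than between groups. Cma1, the alpha-chymase, ranged from -3.01 to 0.80 with a median of -0.11. Its lowest value was on control 7 months replicate 2, and the next lowest were -1.83 in control 4 months, -1.78 in 50 kBq adult 6 months, -1.75 in control 7 months and -1.71 in 0.5 kBq, so that low values were spread over exposed and control groups. Group means ran from -1.67 ± 1.38 (SD, n = 3) in control 7 months to 0.13 ± 0.42 (SD, n = 4) in 500 kBq young 9 months. Mcpt1, a chymase for which RefSeq also lists the older protein names of the rat mast cell proteases, ranged from -5.33 to -1.79. Its highest value was on 50 kBq adult 3 months replicate 1, a group whose other rats were at -4.05, -2.93 and -4.23. Between-group differences made up 27.8% of the variance of Cma1 and 19.1% of that of Mcpt1. Means of so few rats differ by sampling alone, so these shares do not by themselves show a group effect.

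The tryptases Tpsab1 and Tpsb2, trypsin-like proteases stored as heparin-bound tetramers, followed each other array by array. Tpsab1 ranged from -3.93 to -0.35 and Tpsb2 from -4.98 to -2.20. In 50 kBq young 9 months the 4 rats were at -0.35, -2.04, -0.46 and -1.72 for Tpsab1. For Tpsb2 the same rats, in the same order, were at -2.85, -4.03, -2.46 and -3.80. Replicates 1 and 3 were thus high and 2 and 4 low for both genes. In 5 kBq young 9 months the 3 rats were nearly alike, at -2.63, -2.41 and -2.73 for Tpsb2, and the group had the highest Tpsb2 mean, -2.59 ± 0.16 (SD, n = 3).

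Cpa3, the carboxypeptidase stored with chymase in the granules of connective-tissue mast cells, had the largest share of its variance between groups, 43.8%. In control 13 months the 3 rats were at -3.36, -3.28 and -4.90, and in 50 kBq adult 9 months the 4 rats were at -2.18, -1.92, -2.31 and -3.02. Every exposed rat of that age was above every control. The controls of 7 months were at -3.98, -5.56 and -2.71, and those of 10 months at -3.11, -2.34, -2.23 and -2.10. Rats given 500 kBq had the highest group mean, -2.03 ± 0.51 (SD, n = 4), which overlapped the 10-month controls at -2.45 ± 0.45 (SD, n = 4). Control 4 months lay between, at -3.99, -2.42, -2.90 and -3.73.

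The IgE receptor genes varied most. Fcer1a, the alpha chain that binds IgE, ranged from -8.95 to -1.72, and Ms4a2, the beta chain that amplifies the signal, from -8.44 to -3.60. Both were lowest on control 7 months replicate 2, where neither was well above background. The distance from there to the other arrays is only a bound. Both were highest on 50 kBq young 3 months replicate 2, the array of lowest signal, whose 75th percentile was 61.4. In that group Ms4a2 was well above background on 3 of 4 arrays, so the upper end of its range is uncertain as well. In control 4 months Fcer1a was at -6.49, -2.55, -3.95 and -4.68. Ms4a2 was at -5.99, -3.98, -5.04 and -5.35 on the same arrays. The order of the 4 rats was the same for both chains. The second Fcer1a probe correlated with the first at r = 0.98 within groups.

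Kit and Hdc had the narrowest spread between rats. Kit, the stem cell factor receptor, ranged from -7.16 to -3.09, but both ends were arrays that stood apart, and its within-group SD was 0.57. Its group means ran from -5.69 ± 0.60 (SD, n = 4) in 50 kBq adult 3 months to -4.57 ± 0.55 (SD, n = 3) in control 13 months, where the rats were at -4.24, -4.26 and -5.21. Hdc, which makes histamine from histidine, ranged from -3.57 to -0.55 with a within-group SD of 0.51. Without the array of lowest signal its highest value was -1.72. Neither gene is restricted to mast cells, since Kit is also made by blood progenitors and melanocytes and Hdc by some other leukocytes.

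Over the 9 genes the median within-group SD was 0.74, against 0.53 over 25171 probes. Groups accounted for a median of 26.5% of the variance of the mast cell genes and 33.6% of that of all probes. Sampling alone gives such shares too when many small groups are compared, so they do not measure a group effect. With groups sorted by their means, the step to the next group was smaller than that group's own SD at 11 or 12 of the 12 steps for each gene. Sorting makes steps small, so this count does not show that the groups were alike.

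**Figure D2:**
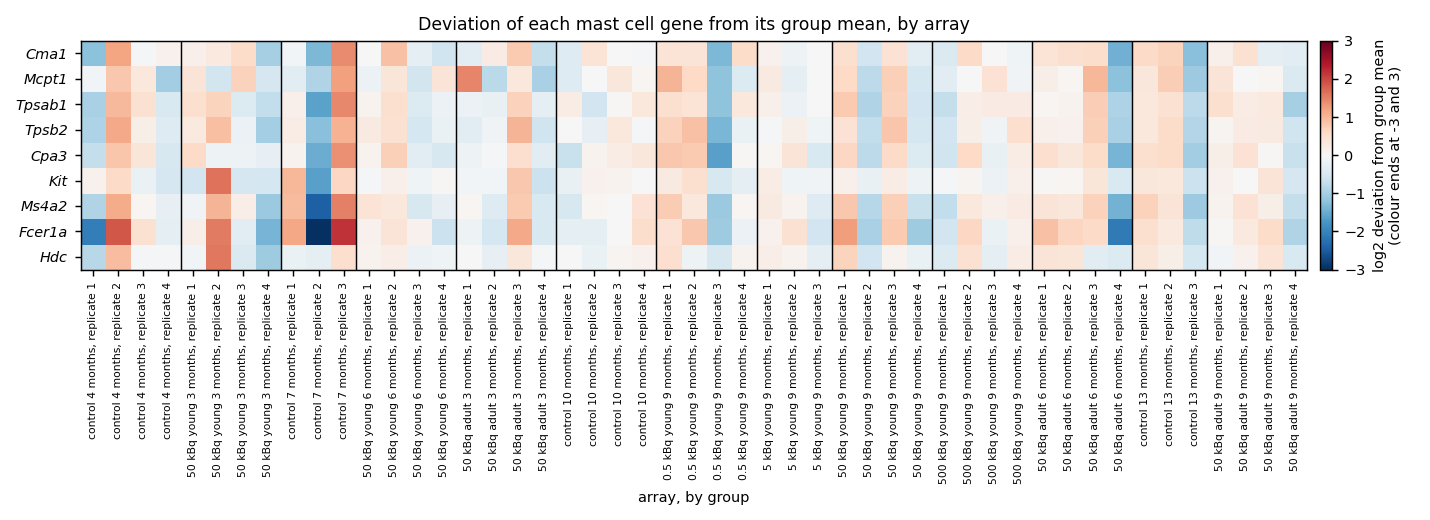
Deviation of each mast cell gene (vertical axis) from the mean of its group on each of the 49 arrays (horizontal axis, ordered by group; lines separate groups; colour in log2 units, ending at -3 and 3). Columns tend to be of a single colour: on control 7 months replicate 2, 9 of 9 genes were among their 5 lowest values, on 50 kBq adult 6 months replicate 4 it was 8 and on 0.5 kBq young 9 months replicate 3 it was 7.

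Deviations from the group mean were compared between genes over the 49 arrays, which removes the groups. All 36 pairs were positively correlated. Pearson's r ran from 0.35 to 0.94 with a median of 0.75, and all 36 had an adjusted p under 0.05 after permutation within groups, with adjustment over the 36 pairs, as had all 36 of Spearman's rho, median 0.75. The genes on an array share its RNA, its scaling and its cell makeup, so the pairs are not independent.

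The receptor chains Ms4a2 and Fcer1a were the closest pair, with r = 0.94 and rho = 0.91, and a permutation p of 1e-05, the smallest that the permutations can give. The tryptases Tpsab1 and Tpsb2 were next, with r = 0.92 and rho = 0.90. Cma1, Tpsab1, Tpsb2, Cpa3, Ms4a2 and Fcer1a formed the tightest group, with 15 pairs between 0.82 and 0.94 and a median of 0.87. Mcpt1, Kit and Hdc followed less closely. The weakest pairs were Mcpt1 with Hdc, r = 0.35 (rho = 0.44, permutation p = 0.0298, adjusted p = 0.0298), and Mcpt1 with Kit, r = 0.44 (rho = 0.56, permutation p = 0.0212, adjusted p = 0.0218).

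Each gene was also set against the mean of the other 8, as a description. Ms4a2 followed that mean most closely, with r = 0.96, then Tpsb2 with 0.94 and Tpsab1 with 0.93. Fcer1a was at 0.92, Cpa3 at 0.90 and Cma1 at 0.87. Kit, Hdc and Mcpt1 were at 0.73, 0.71 and 0.68.

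The median r was as large without the arrays that stood apart, and lower on a single scan date. Without the 3 arrays that stood apart the 36 pairs ran from 0.48 to 0.93 with a median of 0.78, and without the pair of arrays farthest from the median of the gene on the x axis from 0.36 to 0.92 with a median of 0.76. Within the scan date of 24 arrays the median was 0.82 and within that of 11 arrays 0.86. Within the scan date of 14 arrays it was 0.64, with 34 of 36 pairs above 0 and Mcpt1 with Hdc at -0.08 and Mcpt1 with Kit at -0.04.

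**Figure D3:**
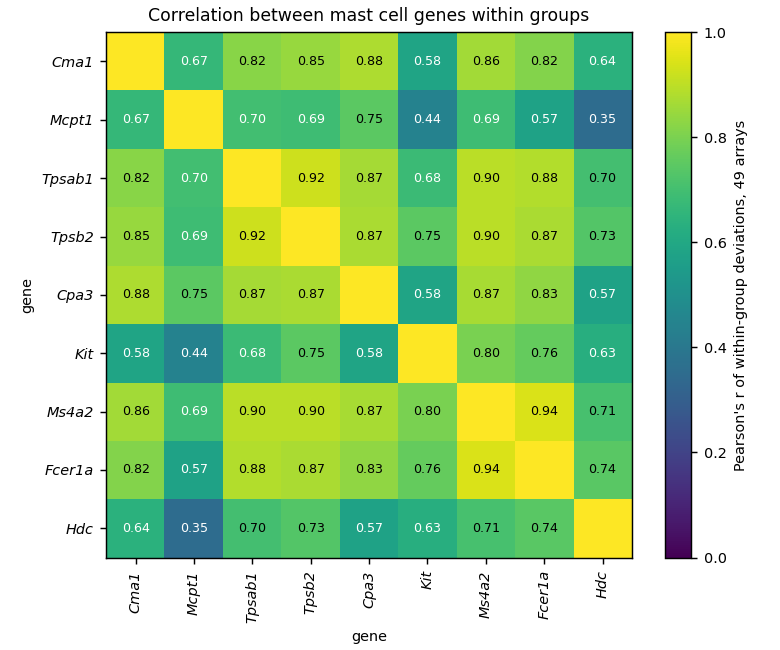
Pearson's r between the within-group deviations of each pair of mast cell genes over 49 arrays (both axes, gene; colour and number, r). The block of Cma1, Tpsab1, Tpsb2, Cpa3, Ms4a2 and Fcer1a holds values from 0.82 to 0.94, while the Mcpt1, Kit and Hdc rows hold the lowest, down to 0.35.

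The series sets irradiated against non-irradiated rats at several activities and ages, and each exposed group was compared with uninjected rats of its age by limma, a linear model over all probes. A gene was called with an adjusted p under 0.01 and a fold change over 1.5, the cut-offs of the study. None of the 9 mast cell genes was called in any of the 14 comparisons. Over all 25284 probes tested, 0% were called for 0.5 kBq, 0.0119% for 5 kBq, 0.0119% for 50 kBq and 0% for 500 kBq in young rats at 9 months. For 50 kBq it was 0.0119% in young rats at 3 months, 0% in young rats at 6 months, 0% in adult rats at 3 months, 0% in adult rats at 6 months and 0.542% in adult rats at 9 months. A count of 0 of 9 was thus near the background. At an unadjusted p under 0.05, limma gave 3 of 9 in young rats at 6 months, 3 of 9 in adult rats at 3 months, 1 of 9 in adult rats at 9 months and 0 in the other 6 comparisons with controls. The shares of all probes at that p were 6.67%, 4.65% and 21.9% in the first 3 of these, and 37.7% in young rats at 3 months. Both counts of 3 of 9 lay above their shares, but they rest on the same 3 controls and on genes that moved together. The counts at 9 months in adult and at 3 months in young rats were not above their shares.

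Across activities at 9 months in young rats the mast cell genes stayed close to the 10-month controls. The lowest activity, 0.5 kBq, gave a median log2 fold change over the 9 genes of -0.11, and 5 kBq gave 0.38. Rats given 50 kBq had a median of -0.0045 and those given 500 kBq of 0.34, all against the same 4 control rats. With 95% intervals about 1 unit to either side, for Cma1 -1.09 to 1.02 at 0.5 kBq and -0.59 to 1.52 at 500 kBq, 2-fold changes were not detectable in most genes. Tpsb2 was higher in all 3 rats at 5 kBq than in the 10-month controls, by 0.60 (95% interval -0.47 to 1.67), and 8.82% of all probes were likewise separated upwards in that comparison. Kit was higher in all 4 rats at 500 kBq (-5.12, -4.97, -5.23 and -4.90) than in the controls (-5.61, -5.24, -5.27 and -5.40), by 0.33 (95% interval -0.48 to 1.13), as were 2.51% of all probes. This was the only 1 of 81 exact two-sided permutation tests of single genes under 0.05, with an exact p of 0.0286, the smallest that 4 against 4 allows, and 0.805 after adjustment over the 81. The trend over log10 activity had a median of 0.10 per 10-fold and 0% of all probes called, and 0 of 9 genes were at an unadjusted p under 0.05 by limma, against 1.25% of all probes.

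With 50 kBq at 5 weeks, 3 months after injection, all 9 genes were higher than in the 4-month controls, by a median of 0.48, with Fcer1a at 1.13 (95% interval -0.48 to 2.75), while the median over all probes was 0.29. In the same comparison 8 of 8 skeletal muscle genes were higher, with a median of 1.23, and 7 of 7 lymphocyte genes, with a median of 1.16. Squamous epithelium genes had a median of -4.06, parathyroid genes of -4.09 and thyrocyte genes of -1.10. These list medians include the exposed arrays that stood apart and were not computed again without them. The part of these genes in the mast cell result was not tested. Without the 3 arrays that stood apart, which include 2 of the 4 exposed rats, the median was 0.05. Within the scan dates where both groups had 2 arrays each the medians were -0.08 and 1.03, so the direction differed between scan dates.

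The largest differences were those from the 7-month controls. In young rats at 6 months all 9 genes were higher, by a median of 0.90, and in adult rats at 3 months 8 of 9, by a median of 1.11; both comparisons share the same 3 controls. The median over all probes was -0.11 in each. With array weights the medians over the 9 genes turned to -0.20 and -0.22, and Cma1 in young rats to -0.019. Fcer1a was 2.54 higher (95% interval 0.80 to 4.29, limma adjusted p = 0.538) in the former and 2.42 higher (0.67 to 4.16, limma adjusted p = 0.998) in the latter. The exposed young rats were at -2.94, -2.69, -2.94 and -3.71, the exposed adults at -3.34, -3.72, -2.06 and -3.65, and the controls at -4.44, -8.95 and -3.44. The lowest control is replicate 2, the array with Tg at -0.70.

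Cpa3 in these groups was 1.52 higher (95% interval 0.41 to 2.64) in the young and 1.51 higher (0.40 to 2.63) in the adult rats, and Cma1 1.26 higher (0.12 to 2.40) and 1.48 higher (0.35 to 2.62). Without that control the medians over the 9 genes were 0.22 and 0.06, the Fcer1a differences 0.87 and 0.75, those of Cpa3 0.79 and 0.77 and those of Cma1 0.59 and 0.81. With that control included, 11 of 11 thyrocyte genes were higher, with a median of 2.26 in the young and 2.11 in the adult rats. On that control Tg was at -0.70 and Pax8 at -6.13, against at least 6.41 and -0.09 on the arrays that did not stand apart. Macrophage genes were higher in 8 of 8, with medians of 0.90 and 0.72. These list medians were not computed again without that control, and the part of these genes in the mast cell result was not tested. All 4 young rats and none of the 7-month controls were on the first scan date, so scan date and exposure cannot be told apart there, and for adult rats the median within the shared scan date was -0.08.

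In adult rats at 6 months the median was -0.05, with 1 of 9 genes higher than in the 10-month controls. At 9 months it was 0.15, with 5 of 9 higher. There Cpa3 was 1.49 higher than in the 13-month controls (95% interval 0.37 to 2.60, a 2.80-fold difference), with a limma p of 0.0102 and an adjusted p of 0.101, and an exact permutation p of 0.0571. All 4 exposed rats were above all 3 controls, as were 9.73% of all probes. Within the scan date that held 2 arrays of each group the Cpa3 difference was 1.88. Leaving out each array in turn gave 0.96 to 1.77. In the same comparison 0 of 11 thyrocyte genes were higher, with a median of -0.83, and 8 of 8 skeletal muscle genes were, with a median of 0.86, and their part in the Cpa3 difference was not tested. The other 8 genes ran from -0.44 for Kit to 1.02 for Fcer1a, with intervals that all include 0. With array weights Kit was at -0.84 and was called (limma adjusted p = 0.000374). The weights of control 13 months replicates 1, 2 and 3 were 5.86, 2.37 and 0.30. The share of all probes called under array weights was not counted, so that call has no background beside it.

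**Figure D4:**
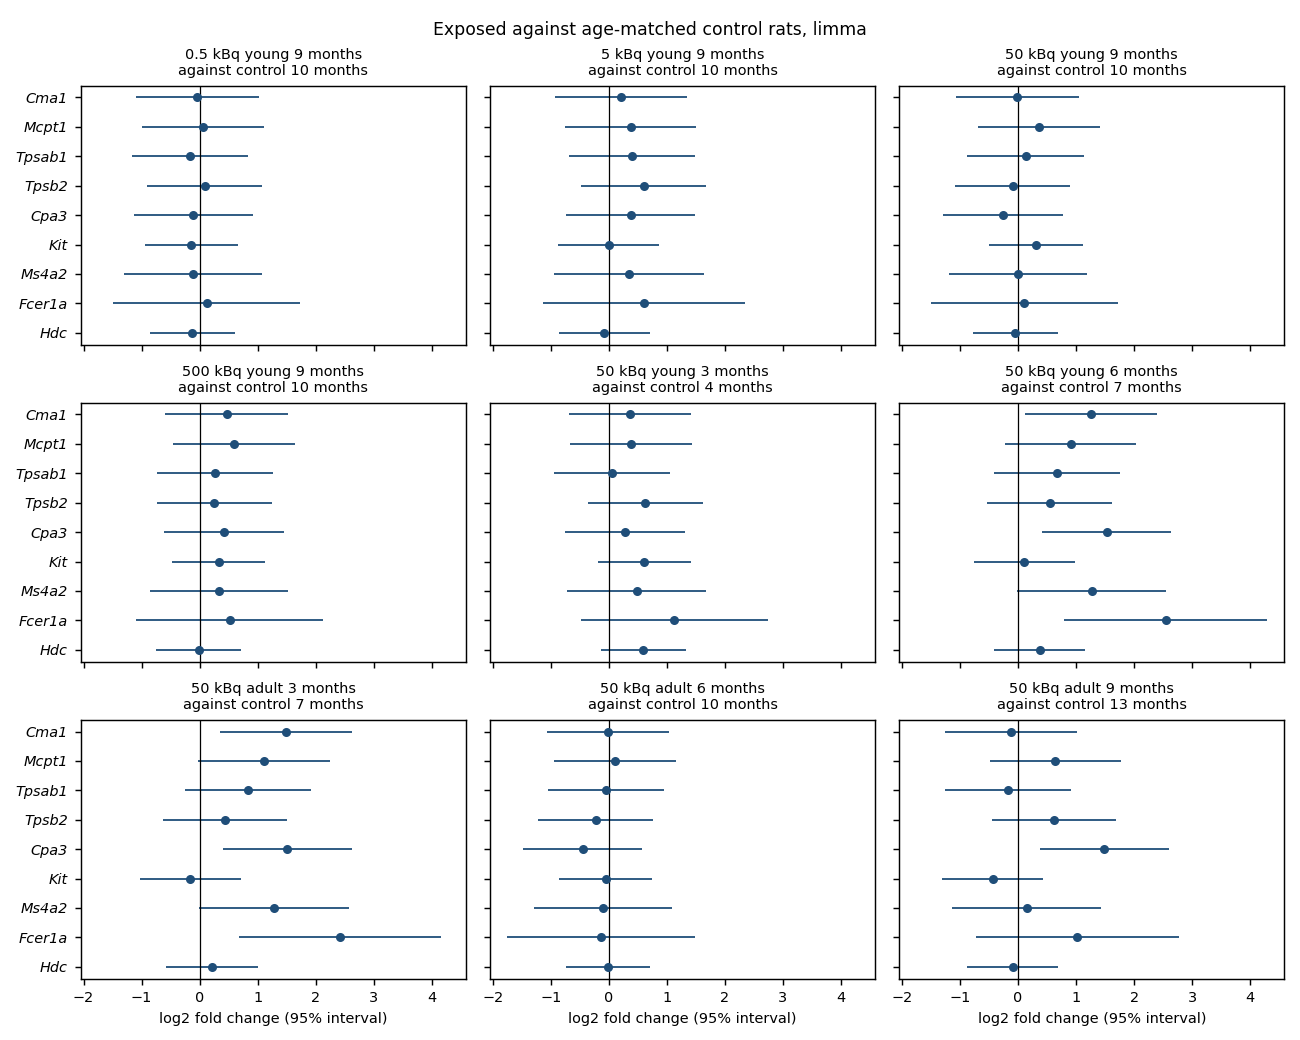
Log2 fold change of each mast cell gene (vertical axis) in 9 exposed groups against controls of the same age (horizontal axis; points, limma estimates; lines, 95% intervals). The intervals lie across 0 except for Cma1, Cpa3 and Fcer1a in both comparisons with the 7-month controls and for Cpa3 in adult rats at 9 months.

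Over the 4 control ages a linear trend was fitted per 3 months. Among all probes 0.981% were called, and none of the 9 mast cell genes. The median slope was 0.24. Tpsab1 had a slope of 0.35 (95% interval 0.01 to 0.69, limma adjusted p = 0.153), with group means of -1.61, -2.33, -1.28 and -0.80 at 4, 7, 10 and 13 months. Without control 7 months replicate 2 the Tpsab1 slope was 0.27. Cpa3 had a slope of -0.01 (95% interval -0.36 to 0.34), and Mcpt1 of -0.02 (-0.38 to 0.34).

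Whether 50 kBq acted differently in adult and young rats was tested as a difference of differences at each time, with 0%, 0% and 0% of all probes called at 3, 6 and 9 months and none of the mast cell genes. At 6 months all 9 estimates were below 0, with a median of -0.80, Cpa3 at -1.98 (95% interval -3.49 to -0.46, limma adjusted p = 0.999) and Fcer1a at -2.68 (-5.05 to -0.30). Without control 7 months replicate 2 the median was -0.24, Cpa3 was at -1.24 and Fcer1a at -1.01, and with array weights the median was 0.26. At 9 months Cpa3 was at 1.75 (95% interval 0.23 to 3.27, limma adjusted p = 0.305), while the median was 0.15. With array weights Kit was called there at -1.14 (limma adjusted p = 0.00273), where the share of all probes called was not counted. At 3 months the median was 0.79, and -0.38 without control 7 months replicate 2.

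Genes of related lists were set against the mean deviation of the 9 genes, as descriptions over the same 49 arrays. Over all probes the median r was 0.08, and 1.43% of 25171 probes had an r over 0.6. Among other mast cell proteases 3 of 5 tested genes had an r over 0.6, led by Mcpt10 at 0.75 and Mcpt8 at 0.73, while the serine protease Prss34 was at 0.21. Among IgE receptor signalling genes 4 of 12 did, with Btk, a kinase downstream of the receptor, at 0.79 and Fcer1g, its gamma chain, at 0.65, and Rabgef1 at -0.28. Among genes of growth and lineage only the transcription factor Gata2 did, at 0.75, with Il3ra at 0.34 and Mitf, the E-box factor, at -0.22. Without the 3 arrays that stood apart Mcpt10 was at 0.68, Mcpt8 at 0.63, Prss34 at 0.26 and Btk at 0.76. Gata2 was then at 0.73, Rabgef1 at -0.06, Mitf at -0.07 and Il3ra at 0.02. Fcer1g fell to 0.56, and Plcg2 and Mcpt9, both counted above, fell to 0.57 and 0.55, while Lat2, also counted, rose from 0.63 to 0.80. For the proteases and the IgE receptor signalling genes the counts over 0.6 thus hold only for all 49 arrays. Among genes of growth and lineage Gata2 was still the only gene over 0.6.

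Of the granule and lipid mediator genes 1 of 11 had an r over 0.6, Tph1, which makes serotonin, at 0.69. Hpgds, the haematopoietic prostaglandin D synthase, was at 0.55, and Srgn, the granule proteoglycan core, at -0.04. Surface receptors followed in 3 of 5 cases, with the interleukin-33 receptor Il1rl1 at 0.79, Cd200r1 at 0.79 and the ATP receptor P2rx1 at 0.20. None of the 4 histamine receptor and breakdown genes did, with Aoc1 at 0.21 highest and Hrh3 at -0.04 lowest. Without the 3 arrays that stood apart Tph1 was at 0.79, Hpgds at 0.35 and Srgn at -0.11. Il1rl1 was then at 0.77, Cd200r1 at 0.78, P2rx1 at -0.02, Aoc1 at 0.13 and Hrh3 at 0.26.

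Lists of other cells moved with the mast cell mean to differing extents. With all arrays and without the 3 that stood apart, r of the list mean was 0.65 and 0.64 for 8 macrophage genes, 0.47 and 0.61 for 7 fibroblast and connective tissue genes, and 0.36 and 0.53 for 7 adipocyte genes. For 7 lymphocyte genes it was 0.42 and 0.34, and for 5 genes of other granulocytes 0.27 and 0.28. For 11 thyrocyte genes it was 0.43 and 0.12. For 7 squamous epithelium genes it was -0.29 and -0.40, and for 8 skeletal muscle genes -0.15 and -0.11. C cell genes were at 0.16 and -0.31 and parathyroid genes at 0.08 and -0.35. Single genes with an r over 0.6 on all arrays numbered 3 of 7 in the fibroblast and connective tissue list. Among them Col1a2 was at 0.79 and Pdgfra at 0.74, as high as genes of the mast cell related lists, while Postn was lowest at 0.06. Without the 3 arrays Col1a2 was at 0.77 and Pdgfra at 0.80. Of the macrophage genes 2 of 8 had an r over 0.6, with C1qb highest at 0.61. The part of these cells in the mast cell result was not tested.

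**Figure D5:**
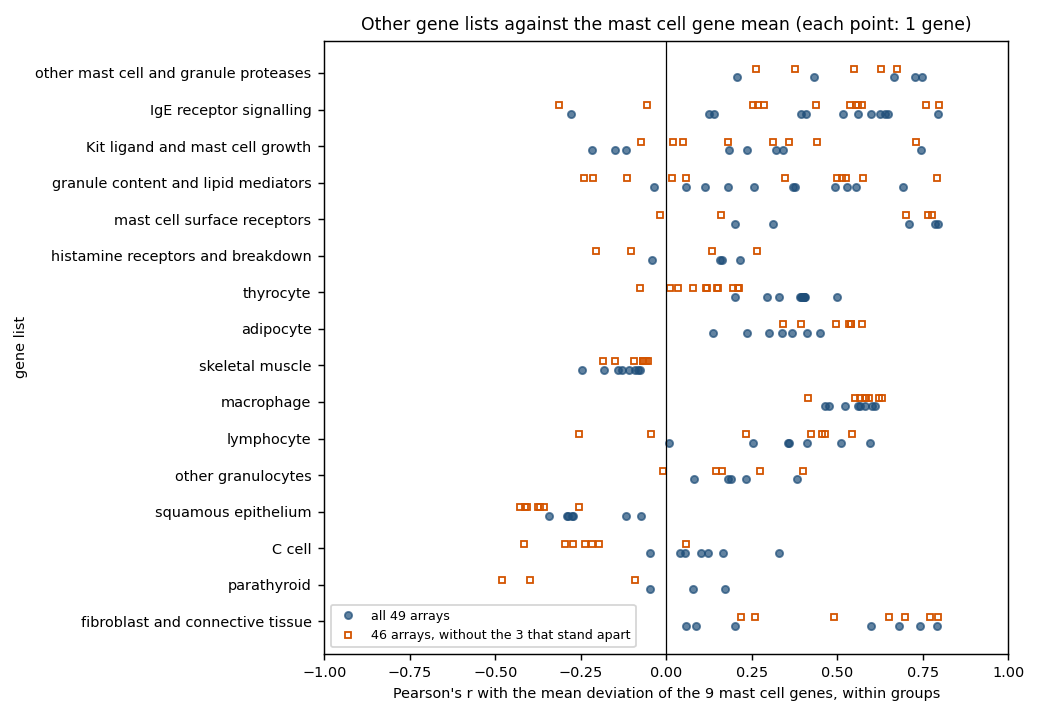
Pearson's r of single genes with the mean within-group deviation of the 9 mast cell genes (horizontal axis), by list (vertical axis); filled circles use all 49 arrays and open squares 46 arrays. On all arrays macrophage genes sit between 0.47 and 0.61 and the other mast cell proteases between 0.21 and 0.75. Fibroblast and connective tissue genes sit between 0.06 and 0.79, whereas squamous epithelium genes sit below 0.

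Of all 25171 probes, members included, 31 (0.123%) had an r over 0.8. The 10 gene symbols outside the lists with the highest r were Apoe, the apolipoprotein of macrophages and other cells, at 0.86, Obp3 at 0.84, Pcolce, which speeds procollagen processing, at 0.84, Tspan4 at 0.83, Nkain4 at 0.83, Cpxm1 at 0.82, the neurotrophin receptor Ntrk2 at 0.81, the inhibitory IgG receptor Fcgr2b at 0.80, the complement gene C2 at 0.80 and Slc14a2 at 0.80. Without the 3 arrays that stood apart, 4 of these, Apoe, Tspan4, Ntrk2 and Cpxm1, were again among the 10 closest, and Vcam1 was first with 0.86.

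Across the 6 related lists 2 genes were called, both in adult rats at 9 months, where 0.542% of all probes were. Hpgds, 1 of 11 granule and lipid mediator genes, was higher by 1.90 (limma adjusted p = 0.00565): exposed rats were at -5.32, -5.49, -5.50 and -5.94 and controls at -7.21, -7.77 and -7.42, of which only the first was well above background. Over the control ages Hpgds was also called, with a linear slope of -0.61 per 3 months (limma adjusted p = 0.00129), where 0.981% of all probes were. The fall was not steady: controls of 7 months were at -6.73, -7.92 and -5.66 and those of 10 months at -6.25, -5.84, -5.21 and -5.73. Control 7 months replicate 2 and control 10 months replicate 1 were not well above background either. Fyn, a Src family kinase and 1 of 12 IgE receptor signalling genes, was lower by 1.08 (limma adjusted p = 0.00735): exposed rats were at -3.35, -3.68, -3.74 and -3.61 and controls at -2.27, -2.24 and -3.04. With scan date as a block both calls were lost, by limma adjusted p of 0.0141 and 0.0152, while the differences were 1.88 for Hpgds and -1.12 for Fyn. After quantile normalization both were lost as well, at 2.01 and -1.03, and with the 2 groups fitted alone, by limma adjusted p of 0.0471 and 0.0571. The call of Fyn was also lost under normexp (limma adjusted p = 0.0583) and with no filter on dim probes (0.0108). With normexp background correction Hpgds was at -0.09 in adult rats at 9 months and at -0.04 per 3 months over the control ages. Both calls were also lost without exposed replicate 1 or 2 or control replicate 1 or 2, with Hpgds at 1.75 to 2.03 over the arrays left out in turn, and that of Fyn without exposed replicate 4. The call of Hpgds over the control ages was lost without control 4 months replicate 1, control 7 months replicate 3 or control 13 months replicate 2, with slopes of -0.58, -0.55 and -0.56.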

How the data were processed

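RNA of 49 thyroids was hybridised to Agilent Sureprint G3 Rat GE arrays in a single colour, 1 rat per array. The deposited files are the scanner output of Agilent Feature Extraction 10.7.3.1, and the authors' processed signal is a background-corrected intensity on a linear scale. Groups were taken from the sample labels. Partek is named in the submitters' processing notes, with its role not given in the sources used here. A deposited table of the authors' own comparisons was not used.

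Control spots and outlier spots were removed, spots of a probe were averaged, and log2 intensities of the deposited signals were centred on the 75th percentile of each array. Probes that rose well above background on fewer than 3 arrays were not tested, which left 25284 of 30367. Group means of all 13 groups were fitted in limma 3.58.1 (R 4.3.3), so that groups share 1 estimate of the spread, and p-values were adjusted by Benjamini-Hochberg over all probes tested. A probe was called at an adjusted p under 0.01 with a fold change over 1.5. Rats of a group are separate animals. A gene with several probes was represented by the probe of highest mean. The trend in activity was fitted over log10 activity in the exposed young rats at 9 months. Same-numbered arrays deviated together in every pair (r = 0.33, 0.32 and 0.14) for young rats at 6 months against the 7-month controls alone, where the numbers come from the labels. Single genes were tested by exact permutation and correlations by 100000 permutations within groups, in Python 3.11.15 with NumPy 2.4.6. SciPy 1.17.1 was used for ranks. The limma fits were tested on simulated data.

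The alternatives were quantile normalization, normexp (offset 50) computed from median signals, since mean signals were not used here, other filters and percentiles, blocks for the slide, the scan date or the replicate number, array weights, averaged probes, the groups compared alone and each array left out. Leaving out the 3 arrays that stood apart was chosen after seeing the data. The members and the lists were chosen with earlier results of these data known. Named were the members, list genes that were called, the 2 list genes with the highest and the 1 with the lowest correlation with the member mean per related list among those described, and the 10 closest gene symbols.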

Additional observations from a re-analysis of the deposited data

Results flagged for a closer look

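Over 9 genes and the 10 groups of 4 arrays, 90 groups of values were examined for a rat far from its group by Dixon's criterion, and 11 were so; chance alone gives about 1 in 20 for a single group, which is no yardstick for that count, since the 9 genes were read on the same arrays and moved together. On 50 kBq adult 6 months replicate 4, Cma1 was at -1.78, Cpa3 at -4.30, Ms4a2 at -6.37 and Fcer1a at -5.57, each the lowest of its 4. On 0.5 kBq young 9 months replicate 3, Cma1 was at -1.71 and Tpsab1 at -2.64, and on 500 kBq young 9 months replicate 1, Tpsab1 was at -1.72 and Ms4a2 at -5.24, again the lowest of their groups. The highest of their groups were Tpsab1 at -0.81 on 50 kBq adult 3 months replicate 3, Cpa3 at -2.42 on 50 kBq young 3 months replicate 1 and Kit at -3.09 on 50 kBq young 3 months replicate 2, the array of lowest signal, where Kit was not well above background. Groups of 3 were not examined.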

How the results depend on the processing

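No mast cell gene was called in 12 of the 14 comparisons under any alternative run. Under array weights Kit alone was called, by -0.84 (adjusted p = 0.000374) in adult rats at 9 months and by -1.14 (adjusted p = 0.00273) in the adult minus young difference at 9 months, which gives 1 call in each. Under these weights the limma adjusted p of Hpgds in adult rats at 9 months went from 0.00565 to 4.9e-09. The share of all probes called under them was not counted, so the calls of Kit have no background beside them. Of 426 recomputed counts 415 were alike. Exact tests of single genes under 0.05 numbered 2 under quantile normalization, 2 under normexp and 0 to 2 with an array left out, against 1. Of 36 member pairs, 32 to 36 passed under other settings. Array weights turned Cma1 in young rats at 6 months to -0.019, and normexp turned Hpgds in adult rats at 9 months to -0.093; the cause was not tested. Medians over the 9 genes moved by over 1 SD in 8 of 319 recomputed values, to -0.20 in young rats at 6 months and -0.22 in adult rats at 3 months under array weights. With the replicate block 0 mast cell genes were called in every comparison, and the calls of Hpgds and Fyn in adult rats at 9 months were lost (adjusted p = 0.0103 and 0.0120). Of 32 same-numbered pairs of arrays in compared groups 10 had a correlation over 0.1, and the 32 ran from -0.52 to 0.50. In 8 of 9 comparisons not every pair was over 0.1. With so few pairs per comparison, this does not settle whether same-numbered arrays share more than a number. Dim probes (Kit, Ms4a2 and Fcer1a on a few arrays) limit the lowest values.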
